A study of Mus musculus with 8 samples.

Results

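Cpn1, Tmprss6, Fads6 and Cidea are 4 genes that were chosen by their array signals, which were low in the Emx2 knockout mice described here. Each was represented by the transcript cluster, the set of probes for all exons of a gene, whose annotation named that gene and no other. The 4 genes had 1 such cluster each, 4 of the 21789 clusters named for a single gene. Since low knockout values were the reason for choosing them, their differences between the groups are a description and carry no test.

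The olfactory mucosa of 8 mice on a mixed 129 x C57BL/6J background was taken at postnatal day 1, and the RNA of each mouse was put on an array of its own. The 4 knockouts were labelled OmpCre:Emx2(fl/fl), with 2 floxed copies of the homeobox gene Emx2 and with Cre recombinase made from the gene-targeted Omp locus, which is active in mature olfactory sensory neurons (OSNs). The 4 control littermates fell into 2 genotypes, since controls 1 to 3 were labelled OmpCre:Emx2(fl/+), with Cre and 1 floxed copy, and control 4 was labelled Emx2(fl/fl), with 2 floxed copies and no Cre. Floxed Emx2 can be deleted only in cells that make Cre, so the other cells of the mucosa keep it in every mouse.

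The 4 genes belong to different pathways. Cpn1 encodes the catalytic subunit of carboxypeptidase N, a plasma enzyme made mainly in liver that trims the last arginine or lysine from kinins and from the complement anaphylatoxins. Tmprss6 encodes matriptase-2, a membrane serine protease best known in liver, where it cleaves the coreceptor hemojuvelin and so lowers hepcidin, the hormone that limits iron release into blood. Fads6 is named for its similarity to the fatty acid desaturases, and its own substrate is not well established. Cidea encodes a protein of lipid droplets that promotes their fusion, and it is best known in brown fat.

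Array medians ranged from 8.64 to 8.68 on the log2 scale. Control 2 stood apart, at 32.9 on the first principal component where the other mice lay between -11.83 and 6.11, and its mean over 12 genes of myeloid and other immune cells was 9.96 against 8.94 to 9.16 in the other 7 mice. Emx2 itself was at 10.58 to 10.89 in controls and 10.14 to 10.34 in knockouts, groups that did not overlap but whose difference of -0.55 ± 0.08 did not pass over all clusters (limma adjusted p = 0.201). Omp was at 13.43 in control 1 and 13.29 in control 4, the mouse without Cre, and at 12.56 to 12.91 in the other 6 mice, so that control 1, although labelled as carrying Cre, lay beside the control without it. Signal of Y-linked genes was high in controls 2 to 4 and knockout 3 and low in control 1 and knockouts 1, 2 and 4. Signals of different genes are not compared with each other, because each rests on its own probes.

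Cpn1 had the largest difference of the 4 genes. Its log2 signal was 9.52, 9.49, 9.07 and 9.51 in controls 1 to 4 and 8.44, 8.58, 8.45 and 8.48 in knockouts 1 to 4. The knockouts lay close together, and the lowest control, control 3, was still 0.49 above the highest knockout. The means were 9.40 ± 0.22 (SD, n = 4) in controls and 8.49 ± 0.06 (SD, n = 4) in knockouts, a log2 difference of -0.91 ± 0.10 (SE) and a fold of 0.532 (-46.8%). In all, 28 of the 21789 clusters had a more negative difference than Cpn1, as did 233 for Tmprss6, 480 for Fads6 and 160 for Cidea.

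Tmprss6 was at 10.28, 10.21, 10.13 and 10.30 in controls 1 to 4 and at 9.85, 9.80, 9.89 and 9.89 in knockouts 1 to 4. The difference was -0.37 ± 0.05 (fold 0.774), with means of 10.23 ± 0.08 (SD, n = 4) and 9.86 ± 0.04 (SD, n = 4). The gap of 0.24 between the groups exceeded the whole range within either group.

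Fads6 had the smallest difference, -0.26 ± 0.04 (fold 0.835). Its values were 9.23, 9.28, 9.20 and 9.31 in controls 1 to 4 and 9.04, 8.98, 9.00 and 8.96 in knockouts 1 to 4. Both groups were tight, with means of 9.26 ± 0.05 (SD, n = 4) and 9.00 ± 0.03 (SD, n = 4), and their gap of 0.16 was again wider than the range within either group.

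Cidea was the most variable of the 4 among knockouts. Its log2 signal was 8.46, 8.63, 8.30 and 8.52 in controls 1 to 4 and 8.14, 7.77, 8.21 and 8.07 in knockouts 1 to 4. Knockout 2 was well below the other 3, and the gap between control 3 and knockout 3 was 0.09. The difference was -0.43 ± 0.11 (fold 0.741), with means of 8.48 ± 0.14 (SD, n = 4) and 8.05 ± 0.20 (SD, n = 4), and without knockout 2 it was -0.34.

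**Figure D1:**
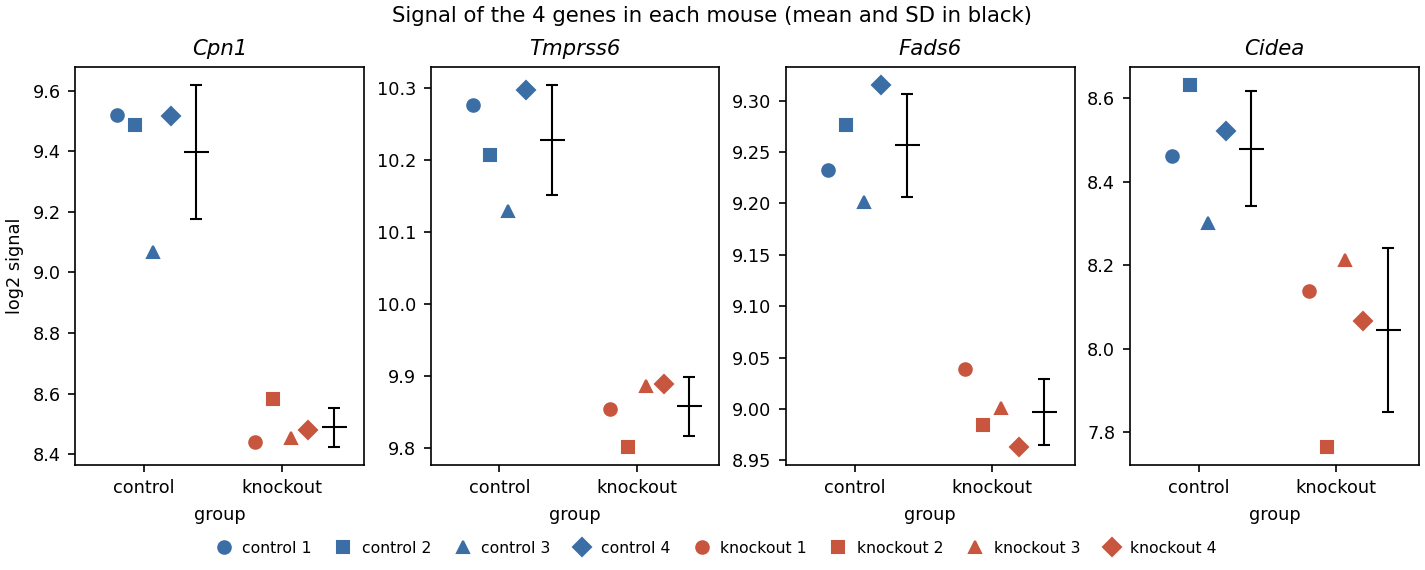
Log2 signal of Cpn1, Tmprss6, Fads6 and Cidea (vertical axes, which differ between panels and do not start at 0) in each control and knockout mouse (points), with group mean and SD in black. In every panel the 4 knockouts lie below the 4 controls, by 0.49 for Cpn1 and 0.09 for Cidea, and control 3 is the lowest control in every panel.

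Promoter windows were taken from the RefSeq promoter table (GRCm38.p6), which held none for Tmprss6, and Cidea was left out of the search. The windows of the other 2 genes, Cpn1 and Fads6, ran from 250 bases before to 50 bases after the transcript start. They are printed 5′ to 3′ on the gene's strand because homeodomain factors such as Emx2 commonly bind sites built on TAAT, and the Olf/Ebf factors of OSNs sites built on CCCNNGGG. Capitals mark these letters on either strand.
Cpn1 (chr19:43986471-43986770, minus strand): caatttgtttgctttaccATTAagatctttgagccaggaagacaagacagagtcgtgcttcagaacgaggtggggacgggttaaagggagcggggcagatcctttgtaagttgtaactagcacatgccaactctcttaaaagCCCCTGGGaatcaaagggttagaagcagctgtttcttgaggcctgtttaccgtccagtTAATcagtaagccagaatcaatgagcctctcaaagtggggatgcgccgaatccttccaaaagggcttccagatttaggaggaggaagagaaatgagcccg
Fads6 (chr11:115297513-115297812, minus strand): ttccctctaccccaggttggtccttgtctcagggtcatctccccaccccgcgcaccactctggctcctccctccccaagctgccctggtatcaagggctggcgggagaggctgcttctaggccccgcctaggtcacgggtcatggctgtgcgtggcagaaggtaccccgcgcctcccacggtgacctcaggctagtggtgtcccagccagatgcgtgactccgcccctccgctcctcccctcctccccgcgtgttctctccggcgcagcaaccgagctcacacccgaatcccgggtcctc
The Cpn1 window held 2 matches to TAAT, starting at positions -232 and -50 from the transcript start, and 1 match to CCCNNGGG at -108, with no overlap between them. The Fads6 window, with a GC content of 67.3% against 48.0% for Cpn1, held none of these. TAAT was present in 58.3% and CCCNNGGG in 13.4% of the 27025 windows of this length in the table. TAAT was added to the search after the data were examined. The longer homeodomain core TAATTA was in neither window and in 5.31% of all. These are matches of letters and not measured binding.

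In all 4 genes every knockout was below every control. Over all clusters the groups were separated in this direction in 322, or 1.48%, and since the genes were chosen for low knockout values nothing is read from their count. In an extract of whole mucosa, fewer cells of a type and less RNA per cell cannot be told apart. Mature OSN genes were set beside the members. The mean of 25 of them, which included Omp and none of the 4 genes, was 11.65 to 11.97 in controls and 11.66 to 11.90 in knockouts, a difference of -0.07 with overlapping groups. With arrays brought to the same value of this mean, the groups stayed apart for Cpn1 (8.35 to 8.64 in knockouts, 9.21 to 9.51 in controls) and Tmprss6 (9.78 to 9.99 and 10.10 to 10.27). For Cidea the gap shrank to 0.02. For Fads6 the groups then overlapped, with knockouts at 8.89 to 9.17 and controls at 9.06 to 9.34, and its difference was -0.19. After this scaling 0.367% of all clusters were separated in this direction, and the median difference of all clusters moved from 0.0024 to 0.0720.

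**Figure D2:**
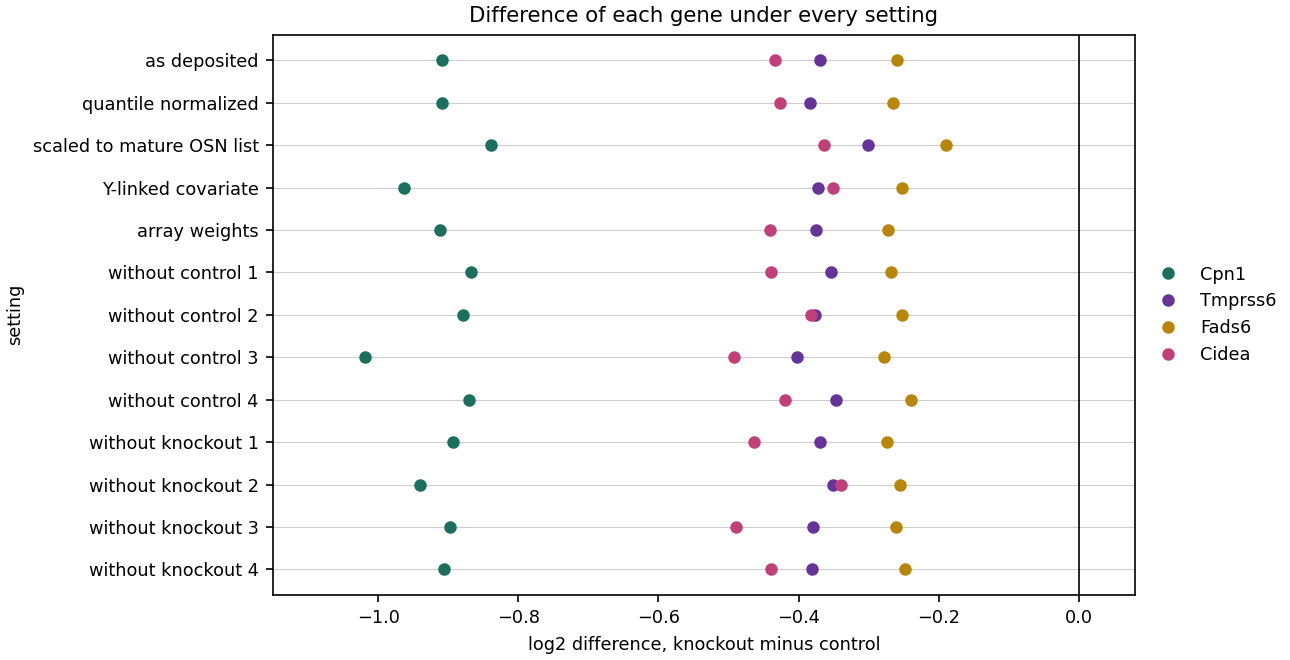
Log2 difference of knockout minus control (horizontal axis) for the 4 genes under each way of treating the arrays and with each mouse left out (rows). All points lie left of 0, and Fads6 comes closest to it (-0.19) after scaling to the mature OSN list.

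Since no group overlapped, the differences stay negative by construction in any subset of the mice, and only their sizes are given. With each mouse left out in turn, Cpn1 ran from -1.02 to -0.87, Tmprss6 from -0.40 to -0.35, Fads6 from -0.28 to -0.24 and Cidea from -0.49 to -0.34. Without control 2, the array that stood apart, they were -0.88, -0.38, -0.25 and -0.38, and without control 1, the mouse of high Omp signal, -0.87, -0.35, -0.27 and -0.44. Because Y-linked signal was unevenly spread over the groups, the differences were also taken among the mice of high and of low signal, with 1 knockout in the former and 1 control in the latter. In the mice of high Y-linked signal Cpn1 differed by -0.90 and in those of low signal by -1.02. Tmprss6 differed by -0.33 and -0.43, Fads6 by -0.26 and -0.24, and Cidea by -0.27 and -0.47. In a fit that held Y-linked signal as a covariate, Cidea was at -0.35, Cpn1 at -0.96, Tmprss6 at -0.37 and Fads6 at -0.25.

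The values of control 4, the mouse with 2 floxed copies and no Cre, are described apart from those of the 3 controls with Cre and 1 floxed copy. Control 4 was among the arrays on which the genes were chosen, so that its place above the knockouts is part of the choice and nothing is read from it. It was 1.03 above the knockout mean for Cpn1, 0.44 for Tmprss6, 0.32 for Fads6 and 0.48 for Cidea. Against the mean of controls 1 to 3 it was higher by 0.16 for Cpn1, 0.09 for Tmprss6, 0.08 for Fads6 and 0.06 for Cidea, and it was the highest control for Tmprss6 and Fads6. With 1 such mouse these differences have no replicate check. Without it, so that every mouse left carried the Cre label, the differences of knockout minus control were -0.87, -0.35, -0.24 and -0.42 in the same order of genes.

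Within the groups, control 3 was the lowest control for each of the 4 genes, for Emx2 and for the mean of the mature OSN list. It lay 0.33 below the control mean for Cpn1 (-0.33), -0.10 from it for Tmprss6, -0.05 for Fads6, -0.18 for Cidea and -0.18 for Emx2. Among knockouts no mouse was lowest in all 4 genes. Knockout 2 was the lowest for Tmprss6 and Cidea and the highest for Cpn1. Deviations from the group means, on which the genes were not chosen, were correlated over the 8 mice in 14 relations, namely the 6 pairs of the 4 genes and each gene with Emx2 and with the mature OSN list. Pearson's r ran from 0.23 (Cpn1 with Cidea) to 0.83 (Tmprss6 with Emx2), all of them positive (Spearman's rho for Cpn1 with Cidea was -0.19), although 9 of the 14 fell below 0 without the 2 mice farthest from the median of the first measure. Control 3 was one of those mice in every relation. Within the groups, each relation of Cpn1 was positive among the 4 controls and negative among the 4 knockouts. For Cpn1 with Cidea r was 0.83 and -0.97, and for Cpn1 with Tmprss6 0.89 and -0.81. The other relations were positive among controls and of mixed sign among knockouts.

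Tmprss6 with Emx2 had r = 0.83 (2-sided exact permutation p = 0.0295 over all arrangements within groups, of which the smallest possible is 0.0017) and Spearman's rho = 0.71 (exact permutation p = 0.113), and both failed adjustment over the 14 relations (adjusted exact p = 0.247 and 0.395). It was 0.51 without control 3 and knockout 2, the 2 mice farthest from the median deviation of Tmprss6. No other relation had a smaller adjusted p. The relation of Tmprss6 with the mature OSN list was 0.81 (rho 0.79, exact permutation p = 0.0538 and 0.0903, adjusted exact p = 0.247 and 0.395), and 0.73 without the same 2 mice. For Cpn1 with Emx2, r was 0.61 and rho 0.48 (exact permutation p = 0.224 and 0.312, adjusted exact p = 0.348 and 0.547), and r turned to -0.41 without control 3 and knockout 1, so the positive value rested on those mice.

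**Figure D3:**
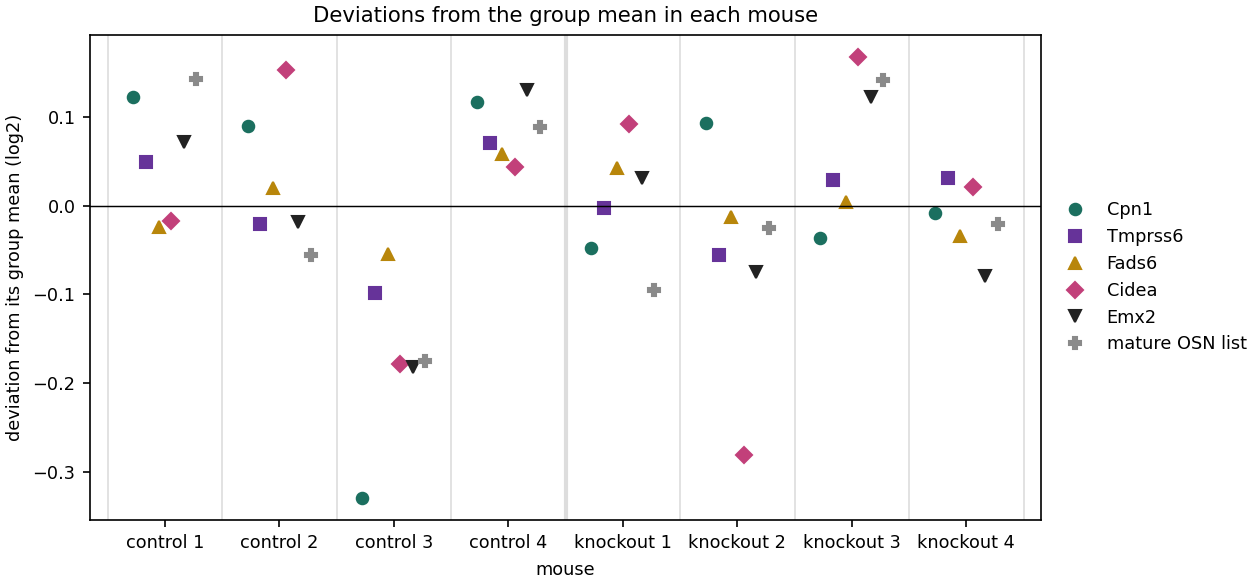
Deviation of each gene, of Emx2 and of the mean of the mature OSN list from its own group mean (vertical axis, log2) in each mouse (horizontal axis). All 6 symbols lie below 0 in control 3, and Cidea in knockout 2 is the lowest knockout point.

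The genes whose log2 profile over the 8 mice was most like that of each member were found by the root-mean-square distance between profiles, each centred on its own mean. This measure follows the same difference for which the members were chosen, so these genes carry no test. For Cpn1 the nearest were S100a5, a calcium-binding protein gene that was also on the mature OSN list (distance 0.19), and the odorant receptor genes Olfr360 (0.20) and Olfr1214 (0.21), with Emx2 as the fourth of all clusters (0.21). S100a5 was at 13.27, 13.10, 12.83 and 13.23 in controls 1 to 4 and 12.25, 12.70, 12.57 and 12.60 in knockouts 1 to 4. As for Cpn1, control 3 was its lowest control.

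Fads6 and Tmprss6 had the same nearest gene, Dnm1, which encodes the GTPase dynamin 1 of synaptic vesicle endocytosis. Dnm1 was at a distance of 0.03 from Fads6 and 0.06 from Tmprss6, with log2 signals of 11.68, 11.66, 11.64 and 11.81 in controls 1 to 4 and 11.44, 11.40, 11.42 and 11.37 in knockouts 1 to 4. Next to Tmprss6 came Slit1, which encodes a secreted axon repellent, and Sowaha (both 0.06). Next to Fads6 came Casz1, a zinc finger transcription factor gene, and Mfsd1, which encodes a membrane transporter of lysosomes (0.04 and 0.05). Fads6 was itself the 7th nearest cluster to Tmprss6 (0.07).

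Cidea was most like Rims3, which encodes a presynaptic protein of the active zone (0.09), and then Cdh18, a cadherin gene, and Dusp1, an immediate early phosphatase gene (both 0.11). In Rims3 and Cdh18, as in Cidea, knockout 2 was the lowest mouse (9.84 and 8.25). Tmprss6 and Emx2 were the 6th and 7th nearest clusters to Cidea (both 0.13). Other ranks were far lower, since Emx2 was the 79th nearest cluster to Tmprss6 and the 11154th to Fads6. Cpn1 was the 19074th to Tmprss6, the 20966th to Fads6 and the 14350th to Cidea, and Cidea was the 9524th to Fads6. The remaining ranks between members ran from 26 to 186. This distance depends on the size of a difference as well as on its pattern. Fads6 varied by 0.13 (root mean square) around its own mean, less than its distance of 0.16 from Emx2 and 0.35 from Cpn1.

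The differences of the 4 genes were set beside those of 99 other genes of 6 lists covering their pathways. Limma called 0 of the 99 at an adjusted p of 0.05, as did the methods' t-test, and over all clusters each called 0 as well (0.0%). At an unadjusted p under 0.05 limma counted 3 of the 99 lower and 0 higher, 3.03% against 5.17% of all clusters (2.55% lower and 2.62% higher). In 1 of them, Bmp6, the groups did not overlap, and over all clusters 3.1% did not overlap in either direction. Of the 99 genes 66 had a lower mean in the knockouts, against 48.6% of all clusters. After scaling to the mature OSN list 29 did, against 18.3% of all clusters, and without control 2 53 did, against 49.4%. The median difference was -0.04, against 0.0024 over all clusters.

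Around carboxypeptidase N, 8 other regulatory carboxypeptidases were measured, of which 3 were lower and 5 higher with a median difference of 0.05. Cpn2, which encodes the noncatalytic subunit that carries Cpn1 in plasma, was at 6.78 to 7.22 in controls and 6.76 to 6.88 in knockouts (-0.16 ± 0.09, limma adjusted p = 0.910), and the groups overlapped. The gene of smallest p was Cpe, a carboxypeptidase of prohormone processing (-0.11 ± 0.06, limma adjusted p = 0.910). The differences of the 8 ran from -0.16 to 0.14. Nothing is read from their being smaller than that of Cpn1, which was chosen for its low knockout values.

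Of 11 genes for the kinin and anaphylatoxin substrates and receptors, 9 were lower and 2 higher (median -0.06), or 5 lower without control 2. Kng1 and Kng2, which encode kininogens, the precursors of kinins, and C5ar1, the receptor for the anaphylatoxin C5a, differed by -0.56, -0.51 and -0.48. In all 3, control 2 was the highest mouse, and without it the differences were -0.17, -0.16 and -0.03. Mme, which encodes the peptidase neprilysin, had the smallest p (0.22 ± 0.11, limma adjusted p = 0.910).

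Type II transmembrane serine proteases besides Tmprss6 were 13 lower and 4 higher of 17 (median -0.09). Without control 2, 12 were lower (median -0.08), and 10 with scaling to the mature OSN list (median -0.02). Of all clusters 18.3% were lower after this scaling (median 0.0720). Tmprss13 had the smallest p (-0.17 ± 0.07, limma adjusted p = 0.910). Tmprss11d had a difference of -0.96, more negative than that of Tmprss6, but its controls ran from 5.87 to 9.19 and control 2 was the highest, and without this mouse the difference was -0.30.

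Hepcidin and iron genes were 16 lower and 11 higher of 27 (median -0.02, and 0.01 without control 2). Bmp6, which encodes the signal that raises hepcidin through the receptor complex of hemojuvelin, was at 10.74, 10.86, 10.72 and 10.81 in controls 1 to 4 and 10.67, 10.40, 10.59 and 10.52 in knockouts 1 to 4. Its groups did not overlap, but the difference of -0.24 ± 0.06 (fold 0.849) did not pass (limma adjusted p = 0.739). Hjv, the hemojuvelin gene, differed by -0.05 ± 0.09, with the sign turned by scaling to the mature OSN list and without knockout 3. Hamp, the hepcidin gene, differed by 0.01 ± 0.14, a sign that also turned in some settings (4.94 to 5.41 in controls and 4.92 to 5.51 in knockouts).

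Desaturases and elongases besides Fads6 were 9 lower and 7 higher of 16 (median -0.01, and 0.0033 with quantile normalization), with differences from -0.15 to 0.20. The relatives with known front-end desaturase activity, Fads1 and Fads2, differed by 0.01 ± 0.06 and 0.06 ± 0.05, and Fads3 by -0.07 ± 0.11. The signs of Fads1 and Fads3 turned in some settings. Elovl7, an elongase gene, had the smallest p (-0.15 ± 0.07, limma adjusted p = 0.910).

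Genes of the CIDE family and of lipid droplets besides Cidea were 16 lower and 4 higher of 20 (median -0.04). Without control 2, 14 were lower (median -0.03). With scaling to the mature OSN list 3 were lower (median 0.03), against 18.3% of all clusters (median 0.0720). The closest relatives, Cideb and Cidec, differed by 0.0015 ± 0.06 and -0.01 ± 0.08, signs that turned in other settings. Dffa, which encodes the inhibitor of the apoptotic nuclease and shares the CIDE domain, had the smallest p (-0.12 ± 0.06, limma adjusted p = 0.910).

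**Figure D4:**
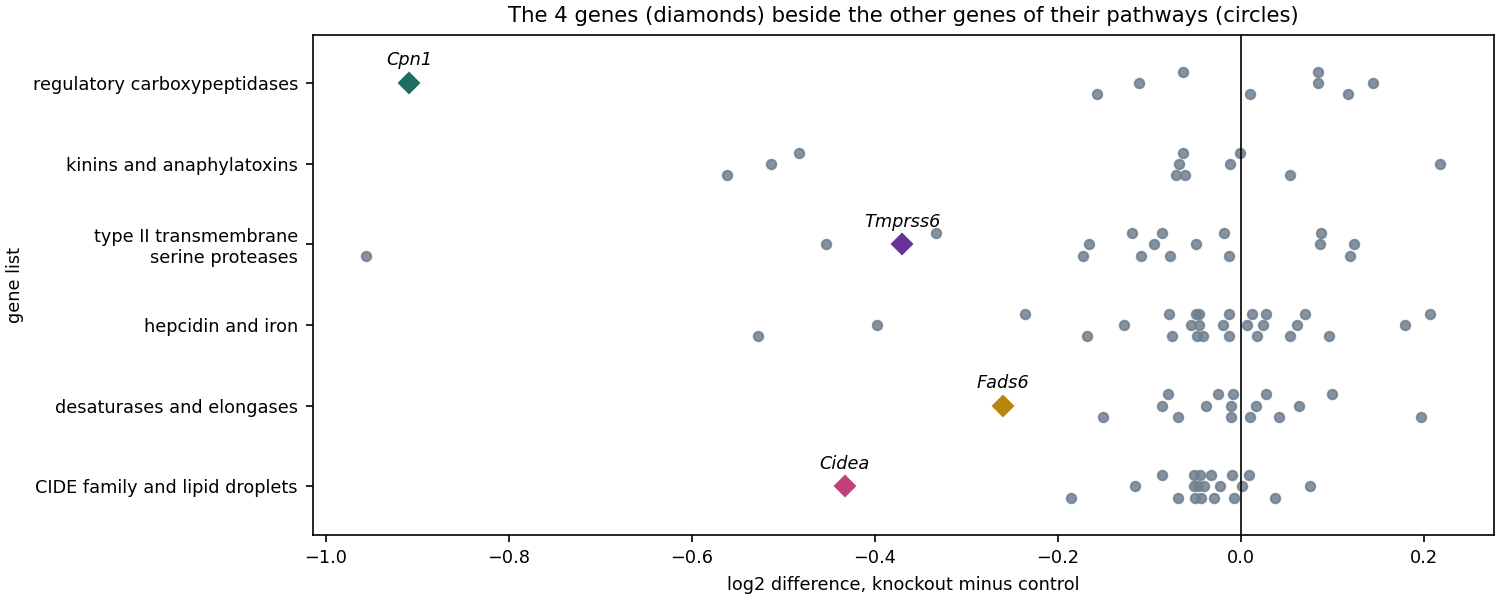
Log2 difference of knockout minus control (horizontal axis) for the 4 genes (diamonds) and the other measured genes of the lists around them (circles, with vertical scatter only for legibility). The circles left of -0.25 are 8 genes, of which 7 were highest in control 2.

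Markers of the tissues in which the 4 genes are best known were described by their values. Of 13 hepatocyte genes, 11 had a lower and 2 a higher mean in knockouts (median -0.05, differences from -1.01 to 0.10). Of all clusters 48.6% had a lower mean. Without control 2, 9 were lower with a median of -0.07, against 49.4% of all clusters. After scaling to the mature OSN list 5 were lower (median 0.02), against 18.3% of all clusters (median 0.0720). The mean of the 13 genes was 7.21 to 7.61 in controls and 7.22 to 7.41 in knockouts. Alb, the albumin gene, was named as the first marker of the list. It was at 6.24 to 6.51 in controls and 6.42 to 6.61 in knockouts. As 1 of the 2 with a higher mean, it does not stand for the 11 lower genes. Of 11 adipocyte genes, 6 were lower and 5 higher with means of 7.69 to 7.76 and 7.71 to 7.74, and the brown fat gene Ucp1 was at 6.87 to 7.09 and 6.85 to 7.02. In both lists limma called 0 genes, as over all clusters, so nothing is read from this count. At an unadjusted p under 0.05 there was 1 adipocyte gene, Lpl, and it was higher. Whether Alb and Ucp1 lay above background is unknown, since no detection values were used here.

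Markers of the mucosa's own cells were described by the mean of each list. Its groups overlapped for mature OSNs (17 of 25 genes lower), immature OSNs (8 of 15 lower, 11.33 to 11.48 in controls and 11.30 to 11.42 in knockouts), sustentacular cells (4 of 9, 12.13 to 12.23 and 12.12 to 12.26), horizontal basal cells (3 of 6, 9.78 to 10.21 and 9.66 to 10.11) and Bowman glands (8 of 11, 10.99 to 12.19 and 11.05 to 11.53). It also overlapped for ciliated cells (4 of 10, 9.94 to 10.31 and 10.04 to 10.29), ensheathing glia (2 of 6, 9.67 to 9.87 and 9.59 to 9.96), muscle (8 of 10, 7.68 to 7.92 and 7.69 to 7.80) and immune cells (9 of 12, and 2 of 12 without control 2). Globose basal and dividing cells had all 8 genes higher (10.72 to 11.17 and 11.13 to 11.30), or 7 of 8 without control 2. Cartilage and bone had all 8 higher (9.73 to 10.21 and 9.93 to 10.36), and the 3 red cell genes were higher (7.65 to 9.21 and 8.30 to 8.72) but lower without control 2. Limma called 0 genes of these lists, and at an unadjusted p under 0.05 it counted 4 mature OSN genes lower and 1 higher, 3 immature OSN genes lower and 1 higher, and 1 globose basal gene higher, where 2.55% of all clusters were lower and 2.62% higher. Their part in the differences of Cpn1, Tmprss6, Fads6 and Cidea was not tested.

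The genes that lie beside the 4 on their chromosomes were described last. Cpn1 lies on chromosome 19, which also carries Emx2, with 121 measured genes between them, and Tmprss6, Fads6 and Cidea lie on chromosomes 15, 11 and 18. Of the 10 measured genes on each side of each member, 80 in all, limma called 0, and 2 had an unadjusted p under 0.05, against 5.17% of all clusters. In 3 the knockouts were all below the controls (3.75%, against 1.48% of all clusters), 1 each beside Cpn1, Tmprss6 and Fads6.

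Beside Cpn1, 15 of 20 genes were lower, with differences from -0.21 to 0.10 and a median of -0.03. The neighbours on either side, Dnmbp and Cyp2c23, differed by 0.01 ± 0.06 and -0.05 ± 0.08. The second gene on the side of Cyp2c23, Erlin1, which encodes a membrane protein of the endoplasmic reticulum, was at 10.28, 10.15, 10.07 and 10.18 in controls 1 to 4 and 10.04, 9.90, 9.99 and 9.92 in knockouts 1 to 4. Its difference of -0.21 ± 0.06 was the most negative of the 20 and did not pass (limma adjusted p = 0.739).

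Beside Tmprss6, 14 of 20 neighbours were lower (median -0.08). Here Kctd17 and Il2rb differed by -0.02 ± 0.05 and -0.13 ± 0.11, and Mpst was the gene with separate groups (-0.09 ± 0.04, limma adjusted p = 0.910). Beside Fads6, 14 of 20 were also lower (median -0.04), Grin2c and Otop2 differed by -0.02 ± 0.05 and -0.05 ± 0.06, and Tmem104 was the gene with separate groups (-0.15 ± 0.06, limma adjusted p = 0.910). Beside Cidea, B430212C06Rik and Tubb6 differed by -0.07 ± 0.05 and -0.01 ± 0.05, and 8 of 20 neighbours were lower and 12 higher (median 0.02). The 5 neighbours below -0.25, Cd300ld and Cd300lf beside Fads6 and Csf2rb, Csf2rb2 and Ncf4 beside Tmprss6, are genes of myeloid cells and were chosen after their values were seen. All 5 were highest in control 2, and their median difference of -0.36 was -0.04 without it. Of the 80 neighbours 51 were lower, against 48.6% of all clusters. Without control 2, 47 of the 80 were lower, against 49.4% of all clusters. After scaling to the mature OSN list, which shifts all genes alike, 22 were lower, against 18.3% of all clusters.

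**Figure D5:**
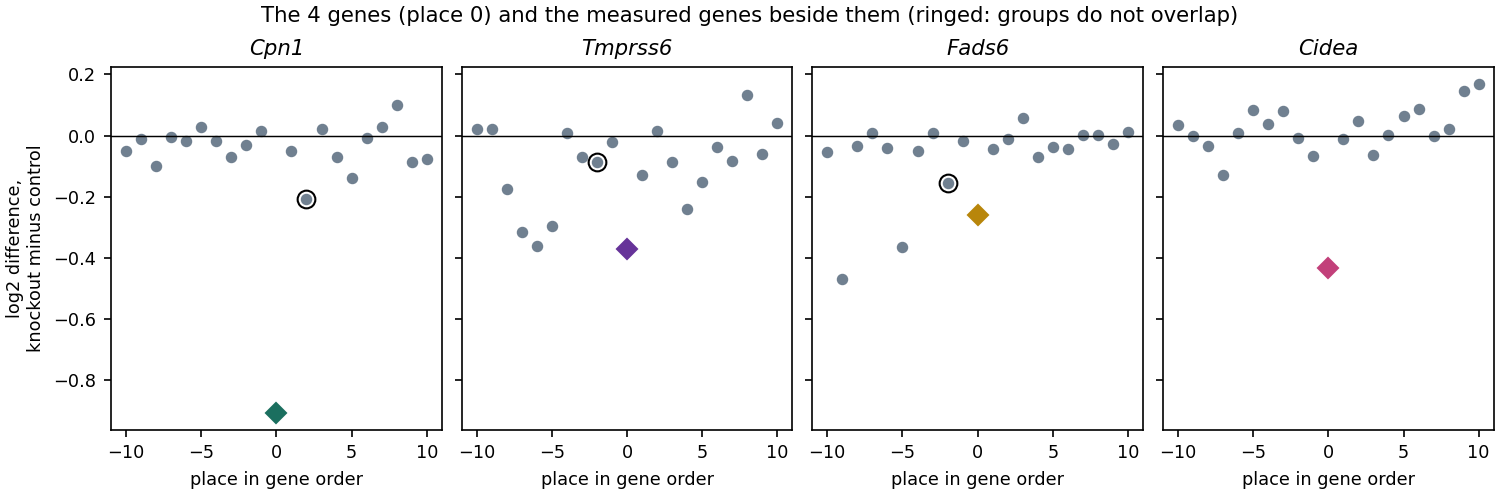
Log2 difference of knockout minus control (vertical axis) for each of the 4 genes (diamond at place 0) and the 10 measured genes on each side of it in gene order (horizontal axis). Ringed genes have all knockouts below all controls (Erlin1, Mpst and Tmem104), and the low grey points beside Tmprss6 and Fads6 are the 5 genes that were highest in control 2.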

How the data were processed

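Olfactory mucosa RNA of 8 mice was measured on Affymetrix Mouse Gene 1.0 ST chips. The authors deposited log2 signals, 1 per transcript cluster and mouse, made with Affymetrix Expression Console, whose version and algorithm are not given in the sources used here. They were not transformed or normalized again. Of 35557 clusters, 21789 had exactly 1 gene symbol in the platform annotation and were tested. The number of arrays limits the precision.

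The groups were compared with limma 3.58.1 in R 4.3.3, 2-sided, with Benjamini-Hochberg adjustment over the 21789 clusters at 0.05. On data simulated for this comparison (5 runs of 21789 clusters with 200 changed), it recovered 76.2% of the clusters given a log2 change of 0.5 and 95.2% where the change was 1. The simulated noise was independent between clusters, whereas the first principal component of the 8 arrays held 32.5% of their variance. Recovery with such shared variation, with fewer changed clusters, or on the 8 arrays themselves, was not tested. In the mice Emx2, the floxed gene, differed by -0.55 ± 0.08 and was not called (limma adjusted p = 0.201). The study's t-test was an alternative, as were scaling to 25 mature OSN genes, quantile normalization, array weights, a Y-linked covariate, a filter on dim clusters and leaving out each mouse. ± is the limma SE unless an SD is named. Replicate numbers are only names, given by accession, and litters are not in the labels, so p values measure only the spread between these mice. Correlations were tested by exact permutation in Python 3.11.15.

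The members and lists were chosen with earlier results of these data known. For genes with more than 1 cluster, that of highest mean signal was used. Genes were named by a rule: the members, Emx2 and Omp, in each pathway list the gene of smallest p and any with separate groups, the first marker of each marker list, the 3 genes nearest to each member in profile, and adjacent genes. Direct partners and relatives of the members (Cpn2, Hjv, Hamp, Fads1, Fads2, Fads3, Cideb and Cidec) and genes lower by over 0.25 were added after the data were examined. Gene order came from the RefSeq table of GRCm38.p6, and no build is named for the arrays.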

Additional observations from a re-analysis of the deposited data

Results flagged for a closer look

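In 138 groups of 4 mice, among the genes named and the means of the marker lists, 7 had a highest or lowest mouse that stood apart by Dixon's criterion on the gap to the next mouse, which chance meets in about 1 of 20 groups. Among the 4 genes this was Cpn1, with control 3 at 9.07 against 9.49 to 9.52 in the other controls, and its difference without control 3 was -1.02. Of genes near a member in profile, Olfr1214 was low in knockout 4 (6.26 against 6.42 to 6.45) and Mfsd1 low in control 3 (12.04 against 12.15 to 12.17). Of first markers, Ptprc, the pan-leukocyte gene, was high in control 2 (9.77 against 8.06 to 8.22), Cbr2 of sustentacular cells low in knockout 1 (13.94 against 14.06 to 14.07) and the muscle gene Acta1 high in control 4 (9.00 against 8.80 to 8.81). The mean of the immune cell list was high in control 2, at 9.96 against 8.96 to 9.03 in the other controls.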

How the results depend on the processing

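The differences of Cpn1, Tmprss6, Fads6 and Cidea were negative in all settings run, which in subsets of the mice their choice fixes. With scaling to the mature OSN list, Tmprss6 moved to -0.30 and Fads6 to -0.19, by over 1 SD between mice, and such a scaling by construction shifts all differences by the same 0.07. The count of clusters called over all genes, 0 as deposited, was 5 with array weights, 4 once arrays were scaled to the mature OSN list, and 2 when fewer clusters were tested, those above the median signal (the cause was not tested). With each mouse left out it was 0 to 1, the 1 being without control 3. Calls among the pathway genes and the neighbours stayed at 0 in all settings. No correlation of deviations passed adjustment with quantile normalization, with scaling to the mature OSN list (without the relations to that list) or with each mouse left out, the settings in which they were run. Of 51 named genes that are not members, none called, 20 changed sign in at least 1 setting. The alternative of another cluster for a gene gave no value, since each of the 4 genes has 1. No paired analysis was possible because the replicate numbers follow accession order and the labels name no litters.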

Other observations

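Genes of the pathways and neighbourhoods that looked lowest in the knockouts were mostly highest in control 2. Of the 8 pathway genes other than the members with a difference below -0.25, control 2 was the highest mouse in 7, and control 3 in Tmprss11a. Trf, the transferrin gene, was at 12.25 in control 2 and 9.32 to 10.37 in the other controls, and its difference of -0.53 was 0.10 without control 2. Cp, the ceruloplasmin gene, was at 12.01 in control 2 and 9.57 to 10.70 in the other controls, and its difference of -0.40 was 0.05 without control 2. Tmprss11g and Tmprss11a, proteases of squamous epithelia, differed by -0.45 and -0.33, and by -0.23 and -0.28 without control 2. Both were high in control 3 as well as in control 2. Tmprss11g was at 5.68, 7.06, 7.05 and 5.78 in controls 1 to 4, and Tmprss11a at 5.89, 6.53, 6.95 and 6.16. These genes were chosen after their values were seen.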
